A study of Mus musculus with 2 samples.

Results

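Toll-like receptors (TLRs) sense microbial products and signals of injured tissue, and all of them except Tlr3 pass the signal on through the adaptor protein encoded by Myd88. This raises transcription of inflammatory genes, among them the precursors of interleukin-1 (IL-1). The inflammasome is a complex of a sensor such as the product of Nlrp3, the linker protein encoded by Pycard (also called ASC) and the protease caspase-1, encoded by Casp1, which cuts the IL-1β precursor into its active form. In lung these genes are best known from macrophages, monocytes and neutrophils, while T cells also use Myd88 below the receptors of the IL-1 family.

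The set described here holds 10 genes of this pathway, namely 4 receptors (Tlr1, Tlr2, Tlr4 and Tlr7), Myd88, the inflammasome genes Nlrp3, Pycard and Casp1, and the cytokine genes Il1a and Il1b. They were found by symbol, and all 10 were present among the 24346 symbols of each library. The samples came from Foxp3-DTR-GFP (FDG) mice, in which GFP and the diphtheria toxin receptor are expressed from the Foxp3 locus, so that GFP marks regulatory T cells (Tregs). All mice had received 50 μg of intratracheal bleomycin (BLM) and were 10 to 16 weeks old. The sort on day 15 took CD4+ cells with GFP from both organs, and each library was made from 3 mice together. No library of naïve mice was analysed here, so the comparison is one of tissue and not of BLM. Since each organ gave 1 library, mouse-to-mouse spread is unknown, nothing could be tested, and every difference below is one between these 2 libraries.

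Levels are FPKM as deposited, which are fragments scaled to transcript length and to library size, so that genes can be compared with each other within a library. The reads behind each value were estimated from transcript lengths. At an effective length of 1 kb, a single read stood for 0.0964 FPKM (spleen) or 0.0849 FPKM (lung). The estimated reads summed to 8929805 and 11596505. Intervals are 95% intervals from these reads. They cover counting error only, since copies made by PCR are not separate molecules and mice were pooled. For ratios, values under 0.1 FPKM were set to 0.1 in both libraries.

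The cytokine genes and Tlr2 were much higher in the lung library, Tlr1 was lower, and Myd88, Pycard and Casp1 were within 2-fold. That library also held markers of other cell types, such as Lyz2 at 24947 FPKM, beside Foxp3 at 41.8. Which cells these transcripts came from was not tested. Il1b, Il1a and Tlr2 were 20.9-fold, 13.0-fold and 12.1-fold higher in the lung library, and Tlr1 was 3.32-fold lower. Tlr4, Tlr7, Casp1 and Pycard lay between 1.43-fold and 1.80-fold higher in lung, and the direction of Myd88, at 1.18, depended on the scaling. Nlrp3 was close to the detection limit in both libraries, too low for a comparison. The 3 genes over 2-fold higher are to be read against a background of 17.8% of the 12094 symbols that reached 1 FPKM in at least one library, and Il1b, the gene over 20-fold higher, against 3.27%. In the other direction, 15.5% of these symbols were over 2-fold lower in lung, as was Tlr1. Nlrp3 did not reach 1 FPKM in either library, so 9 of the 10 genes belong to these 12094 symbols, and 8 of the 9 were higher in lung (7 after rescaling to TPM, as given for Myd88), against 51.5% of all 12094 symbols (32.7% after rescaling). The median log2 ratio of lung to spleen was 0.84 over the 9 genes and 0.03 over the 12094 symbols. The 10 genes were chosen with earlier results of these data known, so these contrasts are descriptive only.

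**Figure D1:**
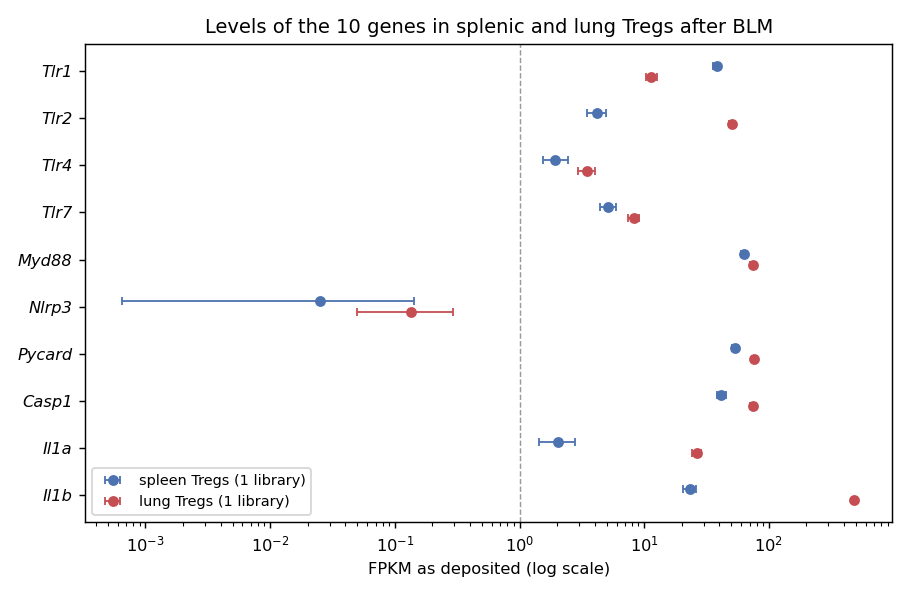
Level of each of the 10 genes in FPKM (horizontal log axis) in the splenic library (blue) and the lung library (red), with bars for the 95% counting interval and a dashed line at 1 FPKM. Il1b reached 485 FPKM in lung and Nlrp3 stayed at 0.134 FPKM or below in both libraries.

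The regions around the start sites are shown for the 3 genes that were over 2-fold higher in lung and for Tlr1, which went the other way. RefSeq promoter sequences of GRCm38.p6, 250 bases before to 50 bases after the start site, were at hand for 8 of the 10 genes, without Tlr4 and Tlr7. Each sequence is written 5′ to 3′ on the strand of its gene, which is the minus strand for all 4. Il1a lies at chr2:129309923-129310222, Il1b at chr2:129371090-129371389, Tlr2 at chr3:83841559-83841858, and the first of the 2 starts of Tlr1 at chr5:64933509-64933808. Capitals mark matches to any of 6 motifs searched on both strands.
Il1a: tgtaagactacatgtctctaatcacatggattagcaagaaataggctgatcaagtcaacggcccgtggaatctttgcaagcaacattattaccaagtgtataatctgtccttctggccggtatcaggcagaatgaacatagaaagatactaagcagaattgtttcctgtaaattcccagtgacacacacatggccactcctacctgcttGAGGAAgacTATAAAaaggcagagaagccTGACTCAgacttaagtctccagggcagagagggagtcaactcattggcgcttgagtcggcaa
Il1b: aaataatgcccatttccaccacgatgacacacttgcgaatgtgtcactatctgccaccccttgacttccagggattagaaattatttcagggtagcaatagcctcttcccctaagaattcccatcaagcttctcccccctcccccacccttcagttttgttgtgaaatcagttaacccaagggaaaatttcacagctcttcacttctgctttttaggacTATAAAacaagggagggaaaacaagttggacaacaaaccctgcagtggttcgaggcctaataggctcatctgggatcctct
Tlr2: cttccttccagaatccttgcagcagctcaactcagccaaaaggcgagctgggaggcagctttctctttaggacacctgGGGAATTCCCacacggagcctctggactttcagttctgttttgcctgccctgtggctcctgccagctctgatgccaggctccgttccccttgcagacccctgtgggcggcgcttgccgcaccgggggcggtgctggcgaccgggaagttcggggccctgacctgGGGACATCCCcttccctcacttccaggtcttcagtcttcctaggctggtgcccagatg
Tlr1: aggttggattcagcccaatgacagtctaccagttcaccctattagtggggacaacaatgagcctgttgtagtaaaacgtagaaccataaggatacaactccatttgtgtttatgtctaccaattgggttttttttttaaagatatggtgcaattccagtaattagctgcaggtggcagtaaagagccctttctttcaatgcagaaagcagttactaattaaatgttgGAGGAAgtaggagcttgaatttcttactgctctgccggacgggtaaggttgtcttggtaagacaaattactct

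The motif of NF-κB, the transcription factor below MYD88, was searched as GGGA and CC with any 4 bases between them. It was found in 20.7% of 32851 promoters of this length. Among the promoters of these genes, only those of Tlr2 and Nlrp3 held it, Tlr2 at 2 places that each match on both strands. The TATA box (TATAAA), which places the start site of many strongly induced genes, was found in 13.6% of promoters. Il1a and Il1b both hold it, at -32 and -31 from the start site. Myd88 holds the letters farther away, at -160 and, on the opposite strand, at -164. The AP-1 motif (TGANTCA), present in 7.81% of promoters, was found in Il1a alone. GAGGAA, a core bound by the myeloid factor PU.1, was found in 28.3% of promoters and in those of Il1a, Tlr1, Pycard, Casp1 and Nlrp3. A C/EBP motif (TTGCNNAA, 10.8% of promoters) was in Pycard only and an interferon response element (GAAA at both ends of any 2 bases, 3.44%) in Myd88 only. None of the 6 motifs was common to Il1a, Il1b and Tlr2 in these windows. Such matches describe the letters and do not show binding.

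Among the receptors, Tlr2, which detects bacterial lipoproteins as a dimer with TLR1 or TLR6, was at 4.15 FPKM in spleen (95% interval 3.45 to 4.97, about 121 reads) and 50.3 in lung (47.9 to 52.8, about 1661 reads). The ratio of 12.1 had a counting interval of 10.1 to 14.7, and 94.6% of the 12094 symbols had a lower ratio. Its partner Tlr1 was at 38.0 FPKM in spleen (35.8 to 40.4) and 11.4 in lung (10.3 to 12.7), 3.32-fold lower in lung with an interval of 2.95 to 3.76. Thus Tlr1 exceeded Tlr2 9.16-fold in the splenic library, and Tlr2 exceeded Tlr1 4.40-fold in the lung library. Tlr6, the other partner, was at 1.94 FPKM in spleen, about 48 reads, and was listed at 0 in lung. With 3 reads as the limit that a count of 0 allows in lung, it was at least 18.3-fold lower there. This limit leaves out the counting error of the splenic reads, and the interval of the ratio, which includes it, reached up to 0.0704. The gene for the common partner was therefore higher in lung while those for both of its partners were lower.

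Tlr4, the receptor for lipopolysaccharide, was weak in both libraries, with 1.94 FPKM in spleen (1.54 to 2.43) and 3.48 in lung (2.95 to 4.05), a ratio of 1.80 (1.35 to 2.37). Tlr7, an endosomal receptor for single-stranded RNA that is encoded on chromosome X, was at 5.12 FPKM in spleen (4.41 to 5.89) and 8.25 in lung (7.39 to 9.15), a ratio of 1.61 (1.35 to 1.94). Neither gene passed 2-fold, and 79.4% and 75.9% of the 12094 symbols had lower ratios. In spleen the order of the receptors by level was Tlr1, Tlr7, Tlr2 and Tlr4, with intervals of Tlr7 and Tlr2 that overlapped. In lung it was Tlr2, Tlr1, Tlr7 and Tlr4, with no overlap of counting intervals.

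Myd88 was among the more abundant of the 10 genes, at 63.4 FPKM in spleen (59.8 to 67.2) and 74.8 in lung (71.1 to 78.7). The ratio of 1.18 (1.09 to 1.28) was the closest to 1 among the 9 genes that reached 1 FPKM, though Pycard was closer after rescaling to TPM. The direction of Myd88 changed direction when each library was rescaled to sum to the same total (TPM), a step that shifted log2 ratios by -0.43. After this rescaling Myd88 was 1.14-fold lower in lung, and no direction is therefore given for it.

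Of the inflammasome genes, Pycard was at 53.4 FPKM in spleen (50.2 to 56.7) and 76.2 in lung (72.7 to 79.9), a ratio of 1.43 (1.32 to 1.54). Casp1 was at 41.6 in spleen (38.2 to 45.2) and 74.4 in lung (70.2 to 78.9), a ratio of 1.79 (1.61 to 1.98). In lung, the intervals of Myd88, Pycard and Casp1 overlapped, so that these 3 genes cannot be ordered by level. Their ranks among all 24346 symbols by lung FPKM were 1590, 1565 and 1604. The sensor gene stood apart from its partners. Nlrp3 was at 0.0253 FPKM in spleen and 0.134 FPKM in lung, which correspond to about 1 and 6 reads. The ratio without the floor was 5.28 with an interval of 0.641 to 243, and with at least 3 reads credited to each library it was 1.74, so a difference in Nlrp3 was not detectable at this depth. The genes of the linker and the protease were thus at 41.6 FPKM or more in both libraries, beside hardly any Nlrp3.

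Il1b had the greatest difference of the 10 genes. It was at 23.2 FPKM in spleen (20.5 to 26.1, about 276 reads) and 485 in lung (474 to 497, about 6559 reads), where it ranked 278 of 24346 symbols. The ratio of 20.9 had a counting interval of 18.6 to 23.7, which includes 20, and 96.9% of the 12094 symbols had a lower ratio. After rescaling to TPM the ratio was 15.5, so its place above 20-fold depends on the scaling while its place above 2-fold does not. Il1a, the IL-1 gene whose product is active without cleavage by caspase-1, was at 2.02 FPKM in spleen (1.42 to 2.79, about 37 reads) and 26.3 in lung (24.2 to 28.6, about 547 reads). Its ratio was 13.0 (9.33 to 18.7). Within the splenic library Il1b exceeded Il1a 11.5-fold, and within the lung library 18.4-fold. Both genes lie on chromosome 2 of GRCm38, Il1a from 129299609 to 129310186 and Il1b from 129364569 to 129371164, and each is annotated with 7 exons.

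**Figure D2:**
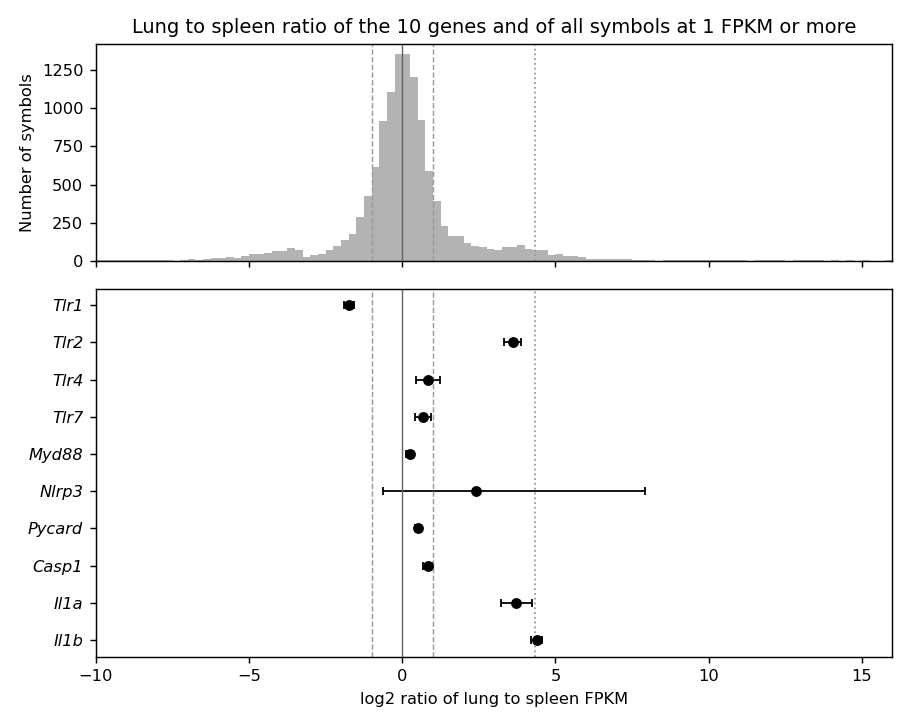
Lower panel, log2 ratio of lung to spleen FPKM for each of the 10 genes without the floor, with the 95% counting interval. Upper panel, number of the 12094 symbols in each bin of 0.25, with the floor. Dashed lines mark 2-fold and the dotted line 20-fold. Il1b, Il1a and Tlr2 lie right of the 2-fold line, Tlr1 left of it, and the interval of Nlrp3 crosses 0.

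The wider pathway was described by 85 further genes in 9 lists by role, and all were listed in the libraries, 4 of them under an older symbol. Of these, 70 reached 1 FPKM in at least one library. Among the 70 genes, 26 were over 2-fold higher in lung, 5 were over 2-fold lower and 39 were within 2-fold, beside 17.8% higher and 15.5% lower over all 12094 symbols. The median log2 ratio was 0.66. In direction alone, 49 were higher and 21 lower, or 40 and 30 after rescaling to TPM, where 51.5% and 32.7% of all symbols were higher. No list was tested, and no list was compared with another by a test. The lists were chosen with earlier results of these data known, so the shares are given for description only. A gene that reached 1 FPKM in a single library had its direction set by that filter.

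Close to the receptors, all 8 of the 9 co-receptor and chaperone genes that reached 1 FPKM were higher in lung (7 after rescaling to TPM), with 3 over 2-fold. Over all 12094 symbols, 51.5% were higher and 17.8% over 2-fold higher. Cd180, which did not reach 1 FPKM, went the other way, at 0.638 FPKM in spleen and 0.120 in lung. Its ratio was 0.189 (0.0348 to 0.676). Cd14, which hands lipopolysaccharide to TLR4, was at 11.3 FPKM in spleen against 277 in lung, a ratio of 24.4 (20.9 to 28.6), or 18.1 after rescaling to TPM. Ly96, the gene of MD-2, the part of the TLR4 complex that binds lipopolysaccharide, was at 19.7 and 31.2 FPKM, a ratio of 1.58 (1.15 to 2.19). Unc93b1, which carries TLR7 and the other nucleic acid receptors to endosomes, was at 49.2 and 77.9 FPKM, a ratio of 1.58 (1.46 to 1.71). Cd14 thus resembled Il1b in its ratio, whereas the genes of the TLR4 complex itself stayed within 2-fold. Of the 8 remaining TLR genes only 3 reached 1 FPKM, and Tlr13 was the most abundant in lung, at 1.34 FPKM in spleen and 10.3 in lung, a ratio of 7.66 (5.76 to 10.4). Of the 5 below 1 FPKM, Tlr3 (about 23 reads in spleen and 2 in lung), Tlr5 (7 and 0) and Tlr11 (9 and 0) were lower in lung. For Tlr12 (16 and 10), the ratio of 0.55 had an interval of 0.223 to 1.29, which includes 1. Tlr9 rested on about 3 and 4 reads.

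Most genes downstream of the receptors were within 2-fold. Of 17 adaptor, kinase, ligase and transcription factor genes, all at 1 FPKM or more, 14 were within 2-fold, 1 was over 2-fold higher and 2 were over 2-fold lower, for which the background is again 17.8% and 15.5%. The median log2 ratio of the list was -0.28 (-0.72 after rescaling to TPM). Tirap, the adaptor that brings MYD88 to TLR2 and TLR4, was at 2.07 FPKM in spleen against 3.19 in lung, with an interval of the ratio of 1.05 to 2.25. Ticam1, the adaptor of TLR3 and of the branch of TLR4 that does not use MYD88, was at 4.56 and 3.05 FPKM. Irak4, the kinase that MYD88 recruits first, was at 17.1 and 20.3 FPKM, a ratio of 1.19 (1.05 to 1.34). Traf6, the ubiquitin ligase below the IRAK kinases, was lower in lung, at 17.1 FPKM in spleen and 5.76 in lung, 2.96-fold. The most abundant of the list, Ikbkb, a kinase that activates NF-κB, was at 77.0 and 59.2 FPKM.

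Of the 9 negative regulators of 10 that reached 1 FPKM, 5 were higher and 4 lower in lung (3 and 6 after rescaling to TPM). Over all 12094 symbols, 51.5% were higher, or 32.7% after rescaling. Sarm1, which did not reach 1 FPKM, was at 0.872 FPKM in spleen, about 39 reads, and was listed at 0 in lung. Nfkbia, the inhibitor of NF-κB and the most abundant of them, was at 581 FPKM in spleen against 871 in lung. Irak3, which blocks IRAK signalling in myeloid cells, was at 4.96 and 5.20 FPKM, a ratio of 1.05 (0.833 to 1.32). Il1rn, which encodes the secreted antagonist of the IL-1 receptor, stood out with 1.40 FPKM in spleen (about 26 reads) and 56.8 in lung (about 1189 reads). Its ratio of 40.5 (27.4 to 61.9) was above that of Il1b. Per FPKM of Il1b, Il1rn amounted to 6.05% in the splenic library and 11.7% in the lung library.

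Among 14 other inflammasome sensors and partners, 12 reached 1 FPKM, of which 4 were over 2-fold higher and 2 over 2-fold lower in lung. The shares over all 12094 symbols were 17.8% and 15.5%. Nlrc4 and Mefv, counted as higher, reached 1 FPKM in lung only, so the filter fixed their direction. The 2 genes counted as lower reached 1 FPKM in spleen only, so the filter fixed their direction as well. Aim2, the sensor of cytosolic DNA that also works through ASC, was at 10.2 FPKM in spleen against 18.2 in lung, and Nlrc4, which responds to flagellin through NAIP proteins, at 0.903 and 4.85 FPKM. Both exceeded Nlrp3 in either library. Tlr6, Aim2, Nlrc4, Gsdme, Mefv, Cd36 and Cd180 fell outside the rule for naming genes and were chosen after their values had been seen. The same holds for Tlr3, Tlr5, Tlr8, Tlr9, Tlr11, Tlr12, Sarm1, Il12b, Cxcl1 and Nos2. Nek7, a kinase that binds NLRP3, was lower in lung, at 53.3 and 27.2 FPKM, and Txnip, another partner of NLRP3, was at 362 and 236 FPKM. Reads of the Naip genes and of Nlrp1a and Nlrp1b may be shared among near-identical copies, so their single values are not given. Without these 5 genes, a choice made after seeing the data, 2 of the remaining 7 were over 2-fold higher and 0 lower. Those 2 were Nlrc4 and Mefv, whose direction the filter fixed. In the wider pathway without the 5 genes, 24 of 65 were over 2-fold higher and 3 lower. Of 4 effectors, 2 were over 2-fold higher in lung, beside the same 17.8%, and Gsdme among them reached 1 FPKM in lung only. Casp4 (caspase-11), at 23.0 and 23.3 FPKM, and Gsdmd, the pore protein cut by caspase-1, at 56.0 and 69.4 FPKM, were also within 2-fold, and both were lower in lung after rescaling to TPM. Ninj1, which completes membrane rupture, was at 37.2 and 119 FPKM, a ratio of 3.20 (2.85 to 3.61). Gsdme, another pore protein, listed under the older symbol Dfna5, was low, at 0.401 and 3.66 FPKM, a ratio of 9.14 with no read estimate.

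Of the other cytokines of the IL-1 family, Il18, which is likewise cut by caspase-1, was at 19.1 FPKM in spleen against 48.9 in lung, a ratio of 2.57 (2.09 to 3.15), and Il33 was listed at 0 in both. Among 6 receptor genes of this family, Il1r2, a decoy receptor for IL-1 that Tregs are known to carry, was the most abundant, at 43.8 and 149 FPKM, a ratio of 3.40 (3.07 to 3.78). Il1rl1, which encodes the IL-33 receptor ST2, was at 2.46 and 25.8 FPKM, a ratio of 10.5 (8.15 to 13.9). The signalling receptor Il1r1 did not reach 1 FPKM, with about 4 reads in spleen and 10 in lung.

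Of 12 inflammatory genes that TLRs are known to induce, 10 reached 1 FPKM, all 10 were higher in lung and 7 were over 2-fold higher. Over all 12094 symbols, 51.5% were higher and 17.8% over 2-fold higher. Il6, Cxcl3, Ccl2 and Il12b reached 1 FPKM in lung only, so their direction was fixed by the filter. The 2 genes below 1 FPKM were Cxcl1, at about 2 reads in spleen and 0 in lung, and Nos2, at about 0 and 2. Il6 was listed at 0 in spleen and at 13.9 FPKM in lung, which is at least 33.1-fold higher with 3 reads as the limit in spleen. The interval of the ratio, which also counts the error of the lung reads, started at 26.5. Ccl2 rested on about 1 read in spleen, with 12.4 FPKM in lung and a ratio of 76.6 (13.4 to 3061). Cxcl3 was listed at 0 in spleen and at 2.62 FPKM in lung, at least 7.32-fold higher by the same limit, with an interval that started at 5.54. The most abundant gene of the list, Nfkbiz, was at 84.3 and 142 FPKM, a ratio of 1.69 (1.62 to 1.76), and 1 of the 10 genes turned lower after rescaling to TPM.

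**Figure D3:**
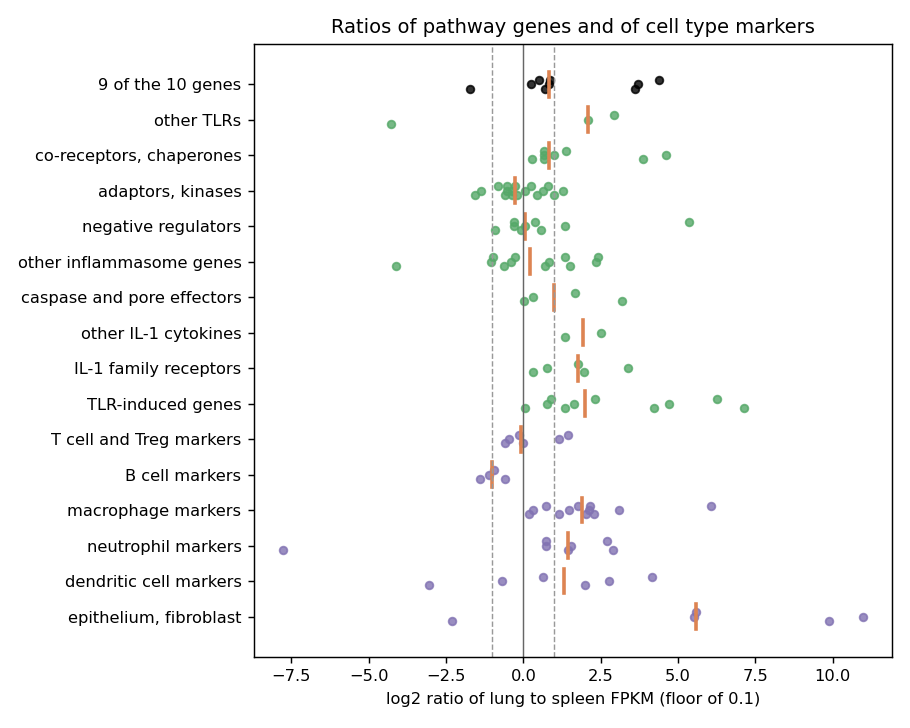
Each point is the log2 ratio of lung to spleen (floor of 0.1 FPKM) of 1 gene that reached 1 FPKM in at least one library, for 9 of the 10 genes (black), the role lists (green) and the marker lists (purple). Orange bars are list medians, the solid line is no difference and dashed lines mark 2-fold. The median of these 9 genes, 0.84, lies between those of adaptors and kinases (-0.28) and of macrophage markers (1.89).

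Markers of macrophages, and most of those of neutrophils, dendritic cells, epithelium and fibroblasts, were higher in lung like Il1b, Il1a and Tlr2, while B cell markers were lower like Tlr1. Their part in these results was not tested. All 6 listed T cell and Treg markers were present in both libraries, with Cd3e, the highest in spleen, at 513 and 369 FPKM, Ctla4, the highest in lung, at 221 and 601, and Foxp3, which defines Tregs, at 18.8 and 41.8. Their sum was 1080 FPKM in spleen and 1291 in lung. All 12 macrophage and monocyte markers were higher in lung (10 after rescaling to TPM) and 9 were over 2-fold higher, none of them at 0. Over all 12094 symbols, 51.5% were higher, 17.8% over 2-fold higher and 3.27% over 20-fold higher. Their summed level was 693 FPKM in spleen and 26204 in lung, with single genes from 1.13 to 376 FPKM in spleen and from 5.10 to 24947 in lung. Lyz2, the lysozyme gene of macrophages and neutrophils, made up most of this sum, which without it, a choice made after seeing the data, was 317 and 1257 FPKM. Csf1r, which encodes the growth factor receptor of macrophages, was at 43.9 and 50.1 FPKM, a ratio of 1.14. Of the 7 neutrophil markers listed, 6 were higher in lung, with a sum of 447 FPKM in spleen and 1208 in lung. S100a8 was the highest in both (276 and 804 FPKM), and Camp was listed at 0 in lung. Of 7 dendritic cell markers, 4 of the 6 that reached 1 FPKM were higher in lung, with a sum of 13.3 and 55.2 FPKM and Clec9a at 0 in lung. Itgax was the highest in lung (1.37 and 24.1 FPKM) and Cd209a the highest in spleen (3.86 and 15.3). Flt3 (1.43 and 0.173 FPKM) and Siglech (2.78 and 1.71) were lower in lung. Flt3 reached 1 FPKM in spleen only, so the filter fixed its direction.

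Relative to Lyz2, which had the highest ratio of the macrophage markers, Il1b, Tlr2 and Il1a were lower in lung. In spleen Il1b amounted to 6.16% of Lyz2 and in lung to 1.95%, Tlr2 to 1.10% and 0.202%, and Il1a to 0.537% and 0.105%. The other 11 macrophage markers had ratios of lung to spleen from 1.14 to 8.57, each below those of Tlr2, Il1a and Il1b, so that relative to any of these 11 the 3 genes were higher in lung. Relative to S100a8, Il1b was also higher, from 8.41% in spleen to 60.4% in lung. Some genes of other lists had higher ratios. Itgax (17.7) and Cd36 (14.65) were above Tlr2 and Il1a, and Cd14 (24.4) and Il1rn (40.5) were above all 3 genes. Relative to Cd14 and Il1rn, the 3 genes were therefore lower in lung. Tlr1 and the B cell markers were both lower in lung. All 4 of the 5 B cell markers that reached 1 FPKM were lower in lung, with a sum of 239 FPKM in spleen and 123 in lung and none at 0. Cd79b was the highest in both (90.4 and 59.7 FPKM), and Cd79a, its partner in the B cell receptor complex, was 2.65-fold lower against 3.32-fold for Tlr1. Among 5 epithelial and fibroblast markers, 4 were over 20-fold higher in lung, beside 3.27% of all 12094 symbols. Scgb1a1 led them at 1.48 and 3021 FPKM. Sftpc and Col3a1, at 0 in spleen, and Col1a1, at 0.129 FPKM there, reached 1 FPKM in lung only. The filter therefore fixed the direction of Sftpc, Col3a1 and Col1a1. Epcam, the highest in spleen, was lower in lung, at 8.75 and 1.79. Foxp3, Csf1r, Cd79a, Col1a1, Flt3 and Siglech were named after their values had been seen. In pooled sorted cells, a different share of cells of a type and a different amount of RNA per cell cannot be told apart.

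The direction of 9 of the 10 genes was the same in the 3 ways of rescaling the libraries, the exception being Myd88. Across the 8 settings tried, Il1b was 15.5-fold to 20.9-fold higher in lung, Il1a 9.04-fold to 13.0-fold and Tlr2 8.98-fold to 12.1-fold, and Tlr1 was 3.14-fold to 4.48-fold lower. Casp1 lay between 1.33-fold and 1.79-fold, and Pycard between 1.06-fold and 1.43-fold. For Nlrp3 the ratio depended on the floor and reached 5.28 with a floor of 0.01 FPKM, while with a floor of 1 FPKM no difference was left.

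**Figure D4:**
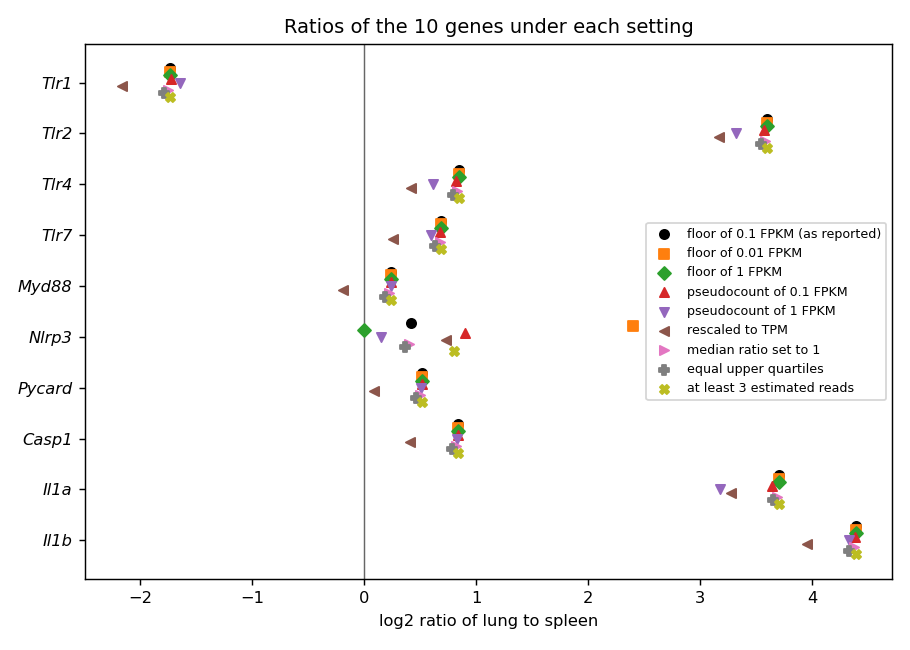
Log2 ratio of lung to spleen of each of the 10 genes under the floor of 0.1 FPKM and the 8 other settings, 1 marker shape per setting. Il1b, Il1a and Tlr2 stay over 2-fold higher and Tlr1 over 2-fold lower, Il1a falls below Tlr2 with a pseudocount of 1 FPKM, Myd88 crosses 0 when rescaled to TPM, and Nlrp3 moves with the floor.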

How the data were processed

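The labels gave 1 library of splenic and 1 of lung Tregs. Per the submitters' processing notes, TopHat2 2.1.1, Bowtie2 2.2.8, SAMtools 0.1.18 and Cuffdiff 2.2.1 were used with mm10, and the authors deposited FPKM from Cuffdiff, made from single-end reads of SMART-Seq HT libraries. Annotation, filters and any scaling between libraries are not given in the sources used here. Full-length PCR-amplified cDNA without molecular identifiers limits the precision of low values.

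The ratio of lung to spleen was taken after a floor of 0.1 FPKM, and counts of symbols cover those that reached 1 FPKM in at least one library. Reads were estimated from GENCODE M21 transcripts (GRCm38) tied to RefSeq, with exons limited to the RefSeq gene, the median length per gene, and fragments of mean 200, SD 80 and minimum 73. FPKM times effective length peaks at the worth of a single read, and this peak was taken over transcripts of at least 1500 nt. A length was found for 94.5% of symbols. Among genes of a single length with 1 to 10 reads, 80.5% in spleen and 80.6% in lung were within 0.1 of a whole number. Lengths of Pycard differ between annotations, so its reads are approximate. Intervals are exact (Poisson for levels, conditional binomial for ratios).

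The 10 genes, the role and marker lists and the motifs were chosen with earlier results of these data known. All 10 genes were named, with fixed partners, genes over 20-fold and the most abundant gene of each role list. For marker lists, the highest gene in each library and those at 0 were named. Of all list symbols, 4 were matched through RefSeq synonyms, and Trac and Ly6g were not matched. Steps were tested on simulated data. Calculations ran in Python 3.11.15 with pandas 2.3.3, scipy 1.17.1 and numpy 2.4.6, and plots were drawn with matplotlib 3.10.9.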

Additional observations from a re-analysis of the deposited data

How the results depend on the processing

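Ratios were recomputed with a lower and a higher floor (0.01 and 1 FPKM), with a pseudocount in its place (0.1 or 1 FPKM), with 3 scalings (TPM, equal upper quartiles, and a median ratio set to 1), and with at least 3 reads credited to each library. The count of the 10 genes over 2-fold higher in lung stayed at 3, except for 4 with a floor of 0.01 FPKM, where Nlrp3 was added. The count over 20-fold higher was 0 instead of 1 after rescaling to TPM. Of 80 ratios of single genes under a setting, 70 stayed within the counting interval, 9 moved beyond it, and 1 reversed, Myd88 with a log2 ratio of -0.19 after rescaling to TPM. That rescaling also raised the symbols over 2-fold lower from 1872 to 3133, while those over 2-fold higher went from 2149 to 1586. Without a filter, 2850 symbols were over 2-fold lower. Symbols over 20-fold higher numbered 395, but 102 with a floor and 78 with a pseudocount of 1 FPKM, by which ratios against low values shrink. The median log2 ratio of the wider pathway, 0.66, was 0.33 over all listed symbols and 0.23 after rescaling to TPM. No replicate could be left out, and no paired analysis was possible because each tissue has 1 library.

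Depth limits Nlrp3, at about 1 and 6 reads. The shortest and longest transcripts tied to RefSeq, an alternative chosen after seeing the data, gave 9 to 196 splenic reads for Tlr7 and 1015 to 1110 for Tlr1. Leaving out the 5 genes with near-identical copies, also chosen after seeing the data, took the wider pathway from 26 to 24 genes over 2-fold higher and from 5 to 3 over 2-fold lower.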
